A study of Mus musculus with 4 samples.

Results

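Spots of mouse dorsal skin in which Krox20 mRNA was counted without Lrig1 were set against spots in which Lrig1 was counted without Krox20. A spot is a barcoded area of a spatial transcriptomics slide; it catches RNA from several neighbouring cells, and each mRNA molecule it catches is counted once by a molecular identifier (UMI). Spots with at least 250 genes and 5500 UMIs were kept, and 5500 UMIs were drawn at random from each. A spot was called Krox20-only when the draw held 1 or more UMIs of Krox20 (listed under its symbol Egr2) and none of Lrig1, and Lrig1-only when it held 1 or more UMIs of Lrig1 and none of Egr2. Of 6420 spots over tissue, 656 were Krox20-only and 1204 were Lrig1-only, while 383 held both genes, 3605 held neither, 563 were too shallow for the draw and 9 had too few genes. Of the 5848 spots deep enough, Krox20-only spots made up 11.2% (exact binomial 95% interval 10.4 to 12.1, counting error only) and Lrig1-only spots 20.6% (19.6 to 21.6). The shallowest member had 5532 UMIs and the deepest spot left out for depth had 5492.

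The tissue was dorsal skin at P38 from 3 mice of the genotype R26-tdTomato; Krox20-CreERT, in which 4-hydroxytamoxifen was given at P2. These mice carry the inducible recombinase CreERT behind the intact Krox20 gene, so that it is made where Krox20 is made, and a red fluorescent reporter at the Rosa26 locus that recombination switches on. All 4 slices share this genotype, induction and age, no slice lacks the alleles, and each slice holds 1 section of each mouse. The slices are therefore repeat sections of the same animals, and every p-value below measures the spread between slices and not between mice. The slices held 19393026 to 26910422 UMIs over 1462 to 1752 spots. Slices 1 to 4 gave 172, 177, 145 and 162 Krox20-only spots and 329, 317, 271 and 287 Lrig1-only spots. The study set the fourth section aside in its own analysis for its distorted shape. Whether that is slice 4 is not stated in the sources used here, and all 4 slices were used.

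KROX20 is a zinc finger transcription factor of the early growth response family, and in skin its gene is active in the upper part of the hair follicle. It is also known for driving myelin genes in Schwann cells. LRIG1 is a membrane protein that dampens ErbB receptor signalling and marks stem cells at the junction of the follicle and the sebaceous gland. The interfollicular epidermis is a layered epithelium whose upper cells make keratins 1 and 10 and then loricrin, whereas the growing follicle makes trichohyalin in its inner root sheath and hair keratins with keratin-associated proteins (KRTAPs) in the shaft. In the mouse genome (GRCm38) Egr2 lies on the forward strand at chr10:67535475-67542188. Lrig1 lies on the reverse strand at chr6:94604529-94700158, where Slc25a26 overlaps it on the other strand; whether the counting used strand is not given in the sources used here.

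Genes of the hair shaft and of the upper epidermis had the lowest p-values between the sides. The promoters of the 2 genes with the lowest p-values on each side are printed here to show which genes carry the difference and one feature they share. Each runs 5′ to 3′ on the strand of its gene, from 250 bases before the start to 50 after it, as given by RefSeq on GRCm38.p6. Krtap19-3 and Krtap22-2, which encode hair keratin-associated proteins and were higher in Lrig1-only spots, have theirs at chr16:88877989-88878288 and chr16:89010710-89011009 on the reverse strand. Krtdap, which encodes a secreted protein of differentiating keratinocytes, and Krt77, which encodes an epidermal keratin, were higher in Krox20-only spots, and theirs lie at chr7:30787655-30787954 on the forward strand and chr15:101869656-101869955 on the reverse strand. Capitals mark TATANA, the core promoter motif searched on the gene's own strand.
Krtap19-3: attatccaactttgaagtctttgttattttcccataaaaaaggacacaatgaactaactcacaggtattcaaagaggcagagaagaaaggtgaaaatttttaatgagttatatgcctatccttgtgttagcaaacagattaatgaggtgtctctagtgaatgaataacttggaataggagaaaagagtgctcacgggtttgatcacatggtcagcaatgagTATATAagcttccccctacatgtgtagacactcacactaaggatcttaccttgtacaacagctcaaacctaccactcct
Krtap22-2: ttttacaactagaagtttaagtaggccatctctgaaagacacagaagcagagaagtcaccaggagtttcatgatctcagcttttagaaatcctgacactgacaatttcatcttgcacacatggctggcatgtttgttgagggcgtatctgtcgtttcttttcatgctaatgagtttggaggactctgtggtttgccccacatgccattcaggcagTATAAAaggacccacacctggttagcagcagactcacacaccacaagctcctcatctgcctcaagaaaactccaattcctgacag
Krtdap: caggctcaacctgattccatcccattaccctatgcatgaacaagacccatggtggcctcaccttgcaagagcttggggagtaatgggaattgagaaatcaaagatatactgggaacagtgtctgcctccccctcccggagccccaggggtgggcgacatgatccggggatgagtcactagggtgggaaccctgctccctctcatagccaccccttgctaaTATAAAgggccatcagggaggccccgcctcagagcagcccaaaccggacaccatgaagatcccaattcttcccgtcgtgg
Krt77: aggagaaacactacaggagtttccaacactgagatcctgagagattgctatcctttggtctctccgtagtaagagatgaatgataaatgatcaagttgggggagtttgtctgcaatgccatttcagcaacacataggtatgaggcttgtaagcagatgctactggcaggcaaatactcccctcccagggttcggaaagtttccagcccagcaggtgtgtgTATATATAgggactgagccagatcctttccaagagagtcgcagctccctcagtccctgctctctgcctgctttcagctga
The motif lay 29 bases before the start in Krtap19-3, 35 in Krtap22-2 and 30 in Krtdap, and Krt77 held overlapping copies at 30 and 28. Among genes higher in Lrig1-only spots that had a promoter in the table, 58 of 69 (84.1%) held it, and among those higher in Krox20-only spots 7 of 16 (43.8%) did. It was present in 768 of 7540 tested genes (10.2%) and in 18.8% of the 27025 genes in the table. The EGR consensus GCGNGGGCG, searched on both strands, was in none of the 16 and in 1 of the 69, against 11.3% of tested genes. These are matches of letters in 300 bases and say nothing about binding.

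Both sides rested on few molecules. The label came from exactly 1 UMI of Egr2 in 588 of the 656 Krox20-only spots (89.6%) and from exactly 1 UMI of Lrig1 in 919 of the 1204 Lrig1-only spots (76.3%). The UMIs that the draw left out were therefore read as a second look at the same spots, as a description with no test. In them Egr2 stood at 38.5, 46.8, 36.3 and 47.4 CPM (a gene's UMIs scaled to the total of the summed spots) in the Krox20-only spots of slices 1 to 4, a mean of 42.3 ± 5.69 (SD, n = 4). In the Lrig1-only spots of the same slices it stood at 39.4, 48.3, 44.1 and 46.7 CPM, a mean of 44.6 ± 3.88. The 2 sets of 4 values overlapped, so the side chosen for Egr2 held no more of it among the molecules left out than the side chosen for its absence. Lrig1 stood at 64.2 ± 16.2 CPM in Krox20-only and 76.8 ± 6.66 CPM in Lrig1-only spots, again with overlapping slices. Slice by slice it stood at 55.8, 45.4, 77.7 and 77.8 CPM against 72.2, 75.7, 72.8 and 86.5 CPM. Within slices it was thus lower in Krox20-only spots in every slice but slice 3. Spots with both genes in the draw held 67.7 ± 11.2 CPM of Egr2 and 130 ± 17.5 CPM of Lrig1 among the UMIs left out, and spots with neither held 21.9 ± 0.724 and 39.1 ± 8.73. Both sides thus lay between these classes for both genes. Among Krox20-only spots 36.3% ± 6.79 had an Lrig1 UMI among those left out, and among Lrig1-only spots 26.2% ± 1.23 had one of Egr2.

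**Figure D1:**
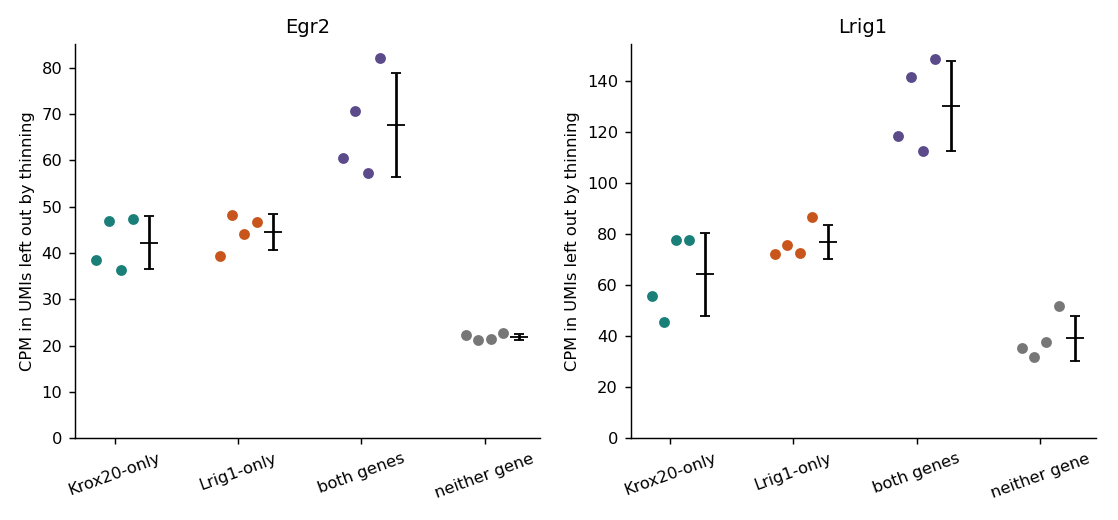
Egr2 (left) and Lrig1 (right) in the UMIs that thinning left out, in CPM, by the class that the drawn UMIs gave each spot. Points are the 4 slices and bars the mean ± SD. The Krox20-only and Lrig1-only points overlap for both genes, at 42.3 and 44.6 CPM of Egr2 and 64.2 and 76.8 CPM of Lrig1 on average. Lrig1 was lower in Krox20-only spots in every slice but slice 3.

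A different random draw moved many spots. In 5 further draws 43.4 to 46.6% of the Krox20-only spots and 54.2 to 56.7% of the Lrig1-only spots kept their side, and 7.16 to 8.38% and 3.16 to 4.49% changed to the other one. The sides are thus samples from overlapping sets of spots, and the gene results below are given with values from those draws.

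The spots were grouped into 12 clusters by all genes except Egr2, Lrig1, Nes and the tdTomato sequence, and the clusters are named by their leading genes. Krox20-only spots lay more often in the cluster led by Lce1m, Lor and Krt10, genes of the cornifying epidermis, at 18.6, 20.3, 13.8 and 17.3% of the side in slices 1 to 4. Lrig1-only spots did so at 20.1, 10.1, 7.75 and 11.5%. Slice 1 ran the other way from the remaining 3, and the difference was 5.15 ± 4.86 percentage points (SD over 4 slices, exact p = 0.25, sign-flip test, two-sided). Lrig1-only spots lay more often in the cluster led by Krtap genes, at 16.1, 15.1, 20.7 and 13.2% of the side in slices 1 to 4. Krox20-only spots did so at 6.98, 13.6, 8.97 and 10.5%. That difference, -6.29 ± 4.90 points, had the same direction in 4 of 4 slices (exact test, 2 of 16 sign patterns, the smallest p that 4 slices allow).

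The cluster led by AU018091 and Slc4a1, which held the most spots of either side, took 24.7% ± 2.81 of Lrig1-only and 19.2% ± 3.94 of Krox20-only spots, lower in Krox20-only in 3 of 4 slices. A cluster led by Mt2, Mt1 and cell division genes such as Cdk1 and Mki67 held 5.79% ± 1.24 of Krox20-only and 3.90% ± 0.335 of Lrig1-only spots, higher in 4 of 4 slices. A small cluster led by Mlana and other pigment cell genes held 9 Krox20-only and 2 Lrig1-only spots, also higher in 4 of 4. The cluster led by Car6 and Atp12a, with Plet1 among its top genes, held 99.6 CPM of Egr2 and 154 CPM of Lrig1 and took 16.3% ± 1.63 and 14.8% ± 3.30 of the sides. No cluster could reach a p under 0.05 with 4 slices, and the lowest p adjusted over the 12 clusters was 0.429. In the other draws, depths and clustering the differences for the Lce1m and Krtap clusters kept their signs, at 2.64 to 5.28 and -5.88 to -3.72 points, whereas those of 5 of the 11 clusters reported turned in at least 1 setting.

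**Figure D2:**
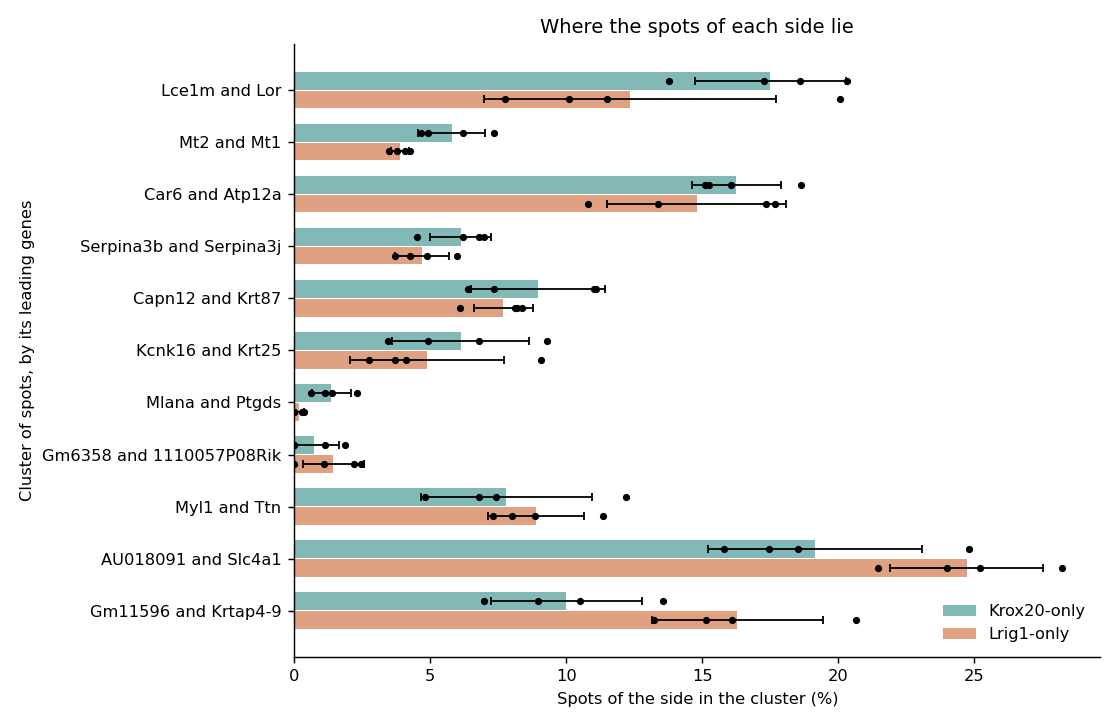
Share of Krox20-only and Lrig1-only spots in each of 11 clusters, named by 2 leading genes. Bars are means over 4 slices with SD and points are slices; the widest gap in each direction is 5.15 points in the Lce1m and Lor cluster and -6.29 points in the Gm11596 and Krtap4-9 cluster.

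Distance from the epidermal cluster did not differ beyond the spread between slices. Steps on the spot grid to the nearest spot of the cluster led by Lor and Krt10 averaged 2.87 ± 0.129 for Krox20-only and 3.01 ± 0.315 for Lrig1-only spots, a difference of -0.145 ± 0.329 (exact p = 0.50). Krox20-only spots made up 45.1% ± 8.77 of both sides within that cluster itself, 38.4% ± 3.43 at 1 step, 32.3% ± 4.82 at 2, 30.1% ± 4.80 at 3 and 23.7% ± 6.98 at 4. At 5 steps the share was 46.3% ± 6.07, so the fall with distance was broken. It then stood at 40.7% ± 10.5 at 6 steps, 34.4% ± 8.40 at 7 and 27.4% ± 13.5 at 8 or more. Krox20-only spots made up 35.3% of both sides over all distances. Within the cluster itself slice 1 stood at 32.7%, against 45.9 to 52.9% in the other slices. The spots around each side did not differ beyond that spread either. Neighbouring spots held 43.6 ± 3.56 CPM of Egr2 around Krox20-only and 42.8 ± 4.10 around Lrig1-only spots, a log2 ratio of 0.030 ± 0.079 (exact p = 0.75). For Lrig1 the ratio was -0.032 ± 0.13 (exact p = 0.625), and the lowest p adjusted over these 3 measures was 0.75.

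Across all other genes, UMIs were summed per slice and side and compared within slices with edgeR's quasi-likelihood test. Of 9482 genes tested, 106 passed an adjusted p under 0.05 (1.12%). Of these 19 were higher in Krox20-only spots (0.200%) and 87 were higher in Lrig1-only spots (0.918%), with log2 fold changes of 0.12 to 0.97 in size. For 99 of the 106 every slice had that direction, and the 2 sides' slices did not overlap for 42 of them, against 275 of all genes tested (2.90%). The fit compares sides within slices, so agreement between slices was partly set by the call. Its share over all genes is not given here. The largest in size were Krtap19-4 (-0.97), Trdn (-0.94), Lyg2 (-0.94) and Crisp1 (-0.91), at mean levels of 14.6 to 44.5 CPM. They were called in 2, 1, 1 and 1 of 6 draws. At an unadjusted p under 0.05, 699 genes passed.

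This count belongs to the draw. The 5 other draws gave 0, 19, 90, 54 and 22 calls by edgeR (568 genes at an unadjusted p under 0.05 in the draw with 0), so the draw reported here gave the most of the 6, and 135 different genes were called in at least 1. No gene was called in 6 of 6 draws, 7 of the 106 were called in 5, and 50 were called in at least 3. The directions varied less, and 99 of the 106 genes had the same direction in 6 of 6 draws. The spots of the draws overlap, and the draw that picked these genes and their directions is 1 of the 6. The share over all genes was not counted. DESeq2 called 59 genes, the fit without the slice as a block called 31, and without slices 1 to 4 in turn the counts were 138, 90, 76 and 87.

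Krtap genes were the largest family among the 87 genes higher in Lrig1-only spots. KRTAPs are small proteins rich in cysteine or in glycine and tyrosine that cross-link hair keratins. Of 48 Krtap genes tested, 38 were higher in Lrig1-only spots (79.2%), 47 had a negative log2 fold change and the median was -0.51, beside 0.0042 over all genes. Both the count and the median were the largest in size of the 6 draws: the other 5 gave 0, 7, 31, 24 and 12 Krtap genes higher in Lrig1-only spots, none higher in Krox20-only spots, and medians of -0.27, -0.19, -0.37, -0.28 and -0.29. The family was grouped after its calls had been seen, and no test was run on it. In sums over spots, fewer cells of a type and less RNA per cell cannot be told apart. Summed over the 48 genes, Krtap mRNA stood at 33398, 28446, 25376 and 22452 CPM in the Krox20-only spots of slices 1 to 4. In the Lrig1-only spots it stood at 47684, 33961, 41213 and 30861 CPM. Each slice was higher on the Lrig1-only side, with a log2 ratio of -0.48 ± 0.18, although the lowest Lrig1-only slice lay below the highest Krox20-only slice.

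Krtap19-3, the gene with the lowest p, stood at 841, 705, 512 and 468 CPM in Krox20-only spots and at 1350, 989.7, 927 and 719 CPM in Lrig1-only spots. The values overlap between slices but each slice was higher on the Lrig1-only side (log2 fold change -0.66, SE 0.054, adjusted p = 3.82e-09 by edgeR). Krtap22-2, the promoter of which is printed above, stood at 2506, 2225, 1913 and 1346 CPM in Krox20-only and 3593, 2876, 3118 and 1800 CPM in Lrig1-only spots (-0.50, SE 0.042). Krtap9-1 stood at 655, 548, 566 and 565 CPM against 1151, 737, 1223 and 897 CPM, and its groups did not overlap (-0.76, SE 0.067, adjusted p = 6.67e-09). Krtap9-1 was among the 7 genes called in 5 of 6 draws, with a log2 fold change of -0.76 to -0.36 over the draws. Krtap19-3 was called in 4, at -0.66 to -0.22.

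The Krtap genes tested lay on chromosomes 1, 7, 10, 11 and 16 of GRCm38. On chromosome 16, from 88610705 to 89571183, 16 of 21 were higher in Lrig1-only spots, and on chromosome 11, from 99550130 to 99993994, 16 of 19 were. Of 10 other tested genes within the chromosome 11 stretch 8 were higher as well, among them Gm11563 (-0.77), Gm11568 (-0.76) and Gm11596 (-0.80), which are predicted genes named by number. Of 7 others within the chromosome 16 stretch 3 were, namely 1110025L11Rik, Gm10228 and Gm10229. A TATANA motif was present in the promoters of all 33 of the 38 Krtap genes that had one in the table. Near-identical copies can share reads: 6 of the 38 shared 20% or more of the 90-base stretches of their transcripts with another gene, up to 39.4%. Many of the other called genes in these stretches were such copies too. Gm11559, Gm11562, Gm11567, Gm11568 and Gm11938 each shared more than 20%, up to 41.1%, with genes that included Krtap9-1 or Krtap2-4. On chromosome 16, 1110025L11Rik, Gm10228 and Gm10229 shared 33.7, 36.7 and 26.2% with genes that included Krtap6-1. Gm11563, Gm11595 and Gm11596 lay below 20%, at 2.93, 8.37 and 0.707%. Among the 40 Krtap genes below that limit 32 were higher in Lrig1-only spots, with a median of -0.53.

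Other follicle genes were also higher in Lrig1-only spots, by less. Tchh, which encodes the trichohyalin of the inner root sheath, stood at 12419 ± 1037 CPM in Krox20-only and 14180 ± 1195 CPM in Lrig1-only spots, higher in Lrig1-only in 4 of 4 slices (-0.19, SE 0.024, adjusted p = 1.70e-06 by edgeR). It was called in 2 of 6 draws, at -0.19 to -0.067, and lay between -0.0059 and 0.041 once clusters were matched, above 0 in 3 of those 4 draws. The inner root sheath keratins Krt27 (-0.21) and Krt71 (-0.12) passed too, and the remaining 6 of 9 genes on that list did not; its median was -0.081. Krt27 was called in 2 of 6 draws, at -0.21 to -0.064, and Krt71 in this draw only, at -0.12 to 0.0011, and with clusters matched both had values on either side of 0. Of 10 hair shaft keratins tested Krt34 (-0.27) and Krt86 (-0.30) were higher in Lrig1-only spots and the median was -0.047, beside -0.51 for the Krtap genes. Krt34 and Krt86 share 20.1 and 28.2% of their 90-base stretches with other hair keratins. They were called in 3 and 1 of 6 draws, at -0.27 to -0.11 and -0.30 to -0.14. Prr9, a proline-rich hair shaft gene, stood at 4645, 4556, 4526 and 4376 CPM in Krox20-only against 5583, 5475, 5419 and 4863 CPM in Lrig1-only spots, with no overlap (-0.24, SE 0.030). It was called in 2 of 6 draws, at -0.24 to -0.027, and lay between -0.037 and 0.017 with clusters matched. Krt85 is not analysed here.

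**Figure D3:**
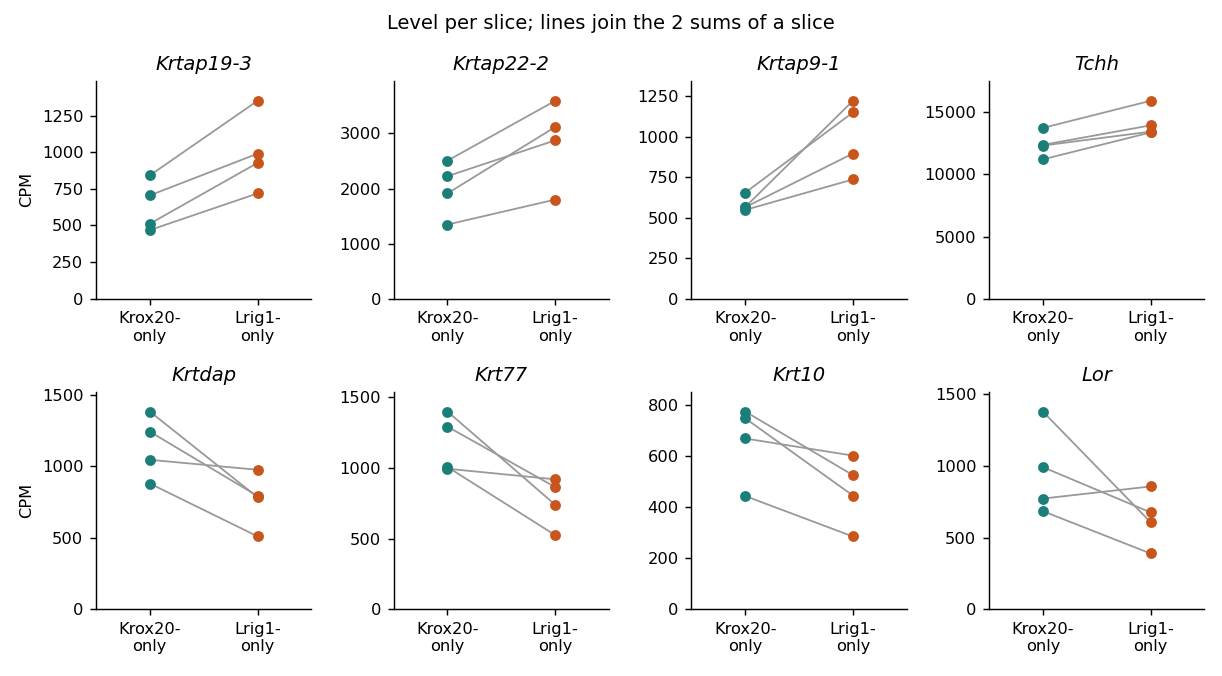
Levels in CPM of 4 genes higher in Lrig1-only spots (top) and 4 higher in Krox20-only spots (bottom), with 1 point per slice and side and lines joining the sums of a slice. Only slice 1 of Lor runs against the direction of the other lines, at 771 against 856 CPM.

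Genes of the upper epidermis led the 19 genes higher in Krox20-only spots. Of 9 genes on the list for suprabasal interfollicular epidermis 6 passed, none in the other direction, and the median log2 fold change was 0.55. The other 5 draws gave 0, 3, 7, 4 and 2 calls in the same direction and medians of 0.20, 0.32, 0.44, 0.27 and 0.31, so this median was the largest of the 6. Without thinning 1 of the 9 passed, and 0 did at 3000 UMIs, with 2 or more UMIs or without the slice as a block. All UMIs of the same spots gave 5, and 1 gene higher in Lrig1-only spots. At 8000 UMIs 3 passed, with DESeq2 4, with library size alone 6 and without the filter 7. The medians of these settings were 0.23 to 0.57. Krtdap stood at 1045, 1382, 879.5 and 1242 CPM in Krox20-only and 975, 784, 510.3 and 792 CPM in Lrig1-only spots, higher in Krox20-only in 4 of 4 slices with overlapping groups (0.58, SE 0.071, adjusted p = 1.13e-06 by edgeR). Krt10, a keratin of the spinous layer, stood at 668, 748, 443 and 774 CPM against 601, 445, 285 and 525 CPM (0.52, SE 0.069). Flg2 (0.68), a filaggrin-like protein of the granular layer, and Krt1 (0.60), the partner of keratin 10, were higher in 4 of 4 slices. Lor (0.60) and Sbsn (0.21) passed with 3 of 4, and Flg, at 0.55 with an adjusted p of 0.136, Dsg1a (0.11) and Ivl (-0.16) did not pass. Over the 6 draws Krt10 was at 0.20 to 0.52 and called in 3, Flg2 at 0.21 to 0.68 and called in 2, and Krt1 at 0.31 to 0.62 and called in 3. With clusters matched Krt10 was at -0.00078 to 0.12. Slice 1 differed least: the 9 genes together stood at 4946 CPM in Krox20-only and 4973 CPM in Lrig1-only spots of slice 1, and the log2 ratios of the other slices were 0.65, 0.46 and 0.44.

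Among genes outside that list, Krt77 stood at 995, 1399, 1007 and 1292 CPM in Krox20-only and 919.8, 739.9, 525 and 865 CPM in Lrig1-only spots, and its groups did not overlap (0.63, SE 0.077, adjusted p = 1.15e-06). Calm4 (0.59), a calmodulin-like protein of differentiating keratinocytes, and Lce1m (0.49), a cornified envelope protein, were higher in 4 of 4 slices. So were Clca3a2 (0.60), Fcgbp (0.48), Orm1 (0.61), Wfdc21 (0.44) and Serpina3j (0.46). Orm1 and Serpina3j were called in this draw only. Krtdap and Krt77 were called in 5 of 6 draws, at 0.20 to 0.58 and 0.30 to 0.63, and Lor in 4.

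Within the cornified envelope list of 11 tested genes the direction was mixed. Lce1m was higher in Krox20-only spots and Cnfn (-0.26), which encodes cornifelin, was higher in Lrig1-only spots, and 9 genes did not pass. Cdsn (-0.30), which encodes corneodesmosin, and Crnn (-0.33), which encodes cornulin, were also higher in Lrig1-only spots, in 4 of 4 slices each, so late differentiation genes lay on both sides in this draw. Cnfn and Crnn were called in this draw only, at -0.26 to -0.064 and -0.33 to -0.053 over the 6, and Lce1m and Cdsn in 2, at 0.12 to 0.49 and -0.30 to -0.060. With clusters matched Lce1m, Cnfn and Crnn had values on either side of 0. Of 8 upper follicle genes tested Krt79 alone passed, at 536 ± 59.0 CPM in Krox20-only and 448 ± 47.0 CPM in Lrig1-only spots (0.26, SE 0.065, adjusted p = 0.0376). It was called in 2 of 6 draws, at 0.21 to 0.33, and its direction turned in all 4 draws with clusters matched, at -0.064 to -0.033. Plet1, a gene of the follicle junction, had a log2 fold change of 0.068 and an adjusted p of 0.912.

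**Figure D4:**
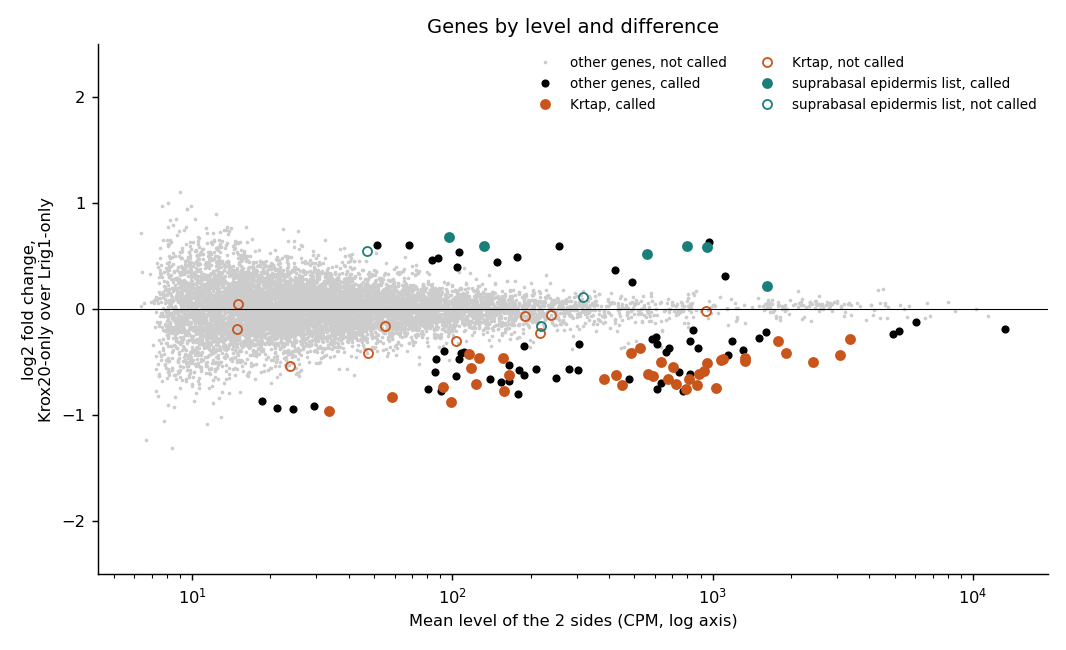
Log2 fold change (Krox20-only over Lrig1-only) against the mean level of the 2 sides in CPM on a log axis, with 1 point per gene for 9482 genes. Filled points passed the test; 47 of 48 Krtap genes lie below 0, of which 38 passed, and 8 of 9 suprabasal genes lie above it, of which 6 passed.

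Genes close to KROX20 and LRIG1 themselves did not pass. Of 4 tested genes among the EGR family and the NAB proteins that bind and restrain EGR factors, none did. Egr1 stood at 168 CPM on both sides (-0.0023) and Egr3 at 149 and 149.8 CPM (0.00076). None of 14 genes of ErbB signalling and the LRIG family passed, although the receptor ligand Btc had a log2 fold change of 0.54 (adjusted p = 0.758) and Hbegf one of 0.41 (adjusted p = 0.735). The lists for immediate-early genes (13 tested), cell cycle (10), basal epidermis (8) and bulge and outer root sheath (8) held no call. Those for companion layer and stress keratins (4), hair matrix (4) and sebaceous gland (10) held none either. Nor did a list of Nes, Kitl, Snai1, Snai2, Twist1, Cdh1, Ctnnb1 and Notch1, of which 7 were tested. The medians of all these lists lay between -0.090 and 0.10. Scd3, a desaturase of sebaceous glands, came nearest at 0.53 (adjusted p = 0.0554).

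Markers of other cell types were read beside these groups, and their part in the results was not tested. All 9 skeletal muscle genes had negative log2 fold changes, with a median of -0.36, and Acta1 (-0.39, adjusted p = 0.0269) and Myh4 (-0.57, adjusted p = 0.00480) passed. Acta1 and Myh4 were both lower in Krox20-only spots in 3 of 4 slices and higher in slice 1, where Myh4 stood at 159 against 125 CPM. The 9 genes together ranged from 2746 to 4538 CPM over the Krox20-only slices and from 3378 to 5716 CPM over the Lrig1-only slices. Of 5 melanocyte genes tested Dct passed (0.54, adjusted p = 0.00497), and the median was 0.40; the 7 genes on the list together ranged from 348 to 575 CPM over the Krox20-only and from 282 to 391 CPM over the Lrig1-only slices. Dct stood at 176, 125, 119 and 84.6 CPM in Krox20-only against 90.6, 85.7, 84.4 and 85.1 CPM in Lrig1-only spots, so in slice 4 the sides were nearly level. Dct was called in this draw only, at -0.26 to 0.54 over the 6. Acta1 was called in 4 draws, at -0.39 to -0.089, and Myh4 in 3, at -0.57 to -0.28. The globin genes Hba-a2 (-0.56) and Hbb-bt (-0.41), which share most of their sequence with Hba-a1 and Hbb-bs, were higher in Lrig1-only spots in 4 of 4 slices. The lists for fibroblasts, dermal papilla, adipocytes, smooth muscle and pericytes, endothelium, immune cells, Schwann cells and myelin, and mitochondrially encoded genes held no call. Some of them still leaned to 1 side. All 7 adipocyte genes tested (median -0.21), all 4 of endothelium (-0.33) and all 11 mitochondrially encoded genes (-0.063) were negative. Of the immune genes 6 of 7 were positive (0.25), as were 6 of 8 fibroblast genes (0.16). Myelin genes, which KROX20 drives in Schwann cells, had a median of -0.023.

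The Krtap and suprabasal differences shrank when clusters were matched. The clusters were made from counts of the same spots that include these genes, so matching evens these genes out in part by construction. The smaller medians are therefore a description and not a separate test. With the same number of spots drawn per cluster on both sides, 637 on each, 34, 18, 29 and 41 genes passed in 4 draws. The Krtap median was then -0.20 to -0.12, with 4 to 20 of the genes higher in Lrig1-only spots. The suprabasal median was 0.064 to 0.13, with 0 to 2 of the genes higher in Krox20-only spots. Some muscle and globin genes, picked after their values were seen, shrank less. Over the 4 matched draws Myh4 (-0.57) was at -0.44 to -0.31, Acta1 (-0.39) at -0.26 to -0.24 and Hba-a2 (-0.56) at -0.53 to -0.38. Trdn (-0.94), called in 1 of 6 unmatched draws, was at -1.003 to -0.74. Other genes, such as Krt79 above, turned direction. Within single clusters, 0 genes passed in the cluster led by AU018091 and Slc4a1, 1 in that led by Lce1m and Lor, and 0 in that led by Car6 and Atp12a by edgeR. At an unadjusted p under 0.05, 204 of 4132, 165 of 2731 and 120 of 2457 genes passed there, with 124, 116 and 106 Krox20-only spots in the sums. The Krtap medians there were -0.13, -0.15 and -0.0067, and the suprabasal medians 0.066, 0.17 and -0.13.

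The strips of tissue also differed. Each slice holds 3 strips, set here from the positions of the spots after they had been seen, and in strip 3 Xist made up 74.8 to 85.5% of the summed UMIs of Xist and 4 Y-linked genes, against 8.96 to 14.8% in strips 1 and 2. Taken alone, strip 1 gave 0 calls by edgeR (194 of 4191 genes at an unadjusted p under 0.05), strip 2 gave 135 and strip 3 gave 18. The Krtap median was -0.17, -0.83 and -0.50 and the suprabasal median 0.15, 0.79 and 0.59. Strip 1 held the fewest members, with 143 Krox20-only spots against 233 and 280. Whether the strips differ from each other was not tested. With sums per strip of each slice, and each strip of each slice as its own block, 12 genes were higher in Krox20-only and 67 in Lrig1-only spots. These blocks are still repeat sections of the same 3 mice.

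**Figure D5:**
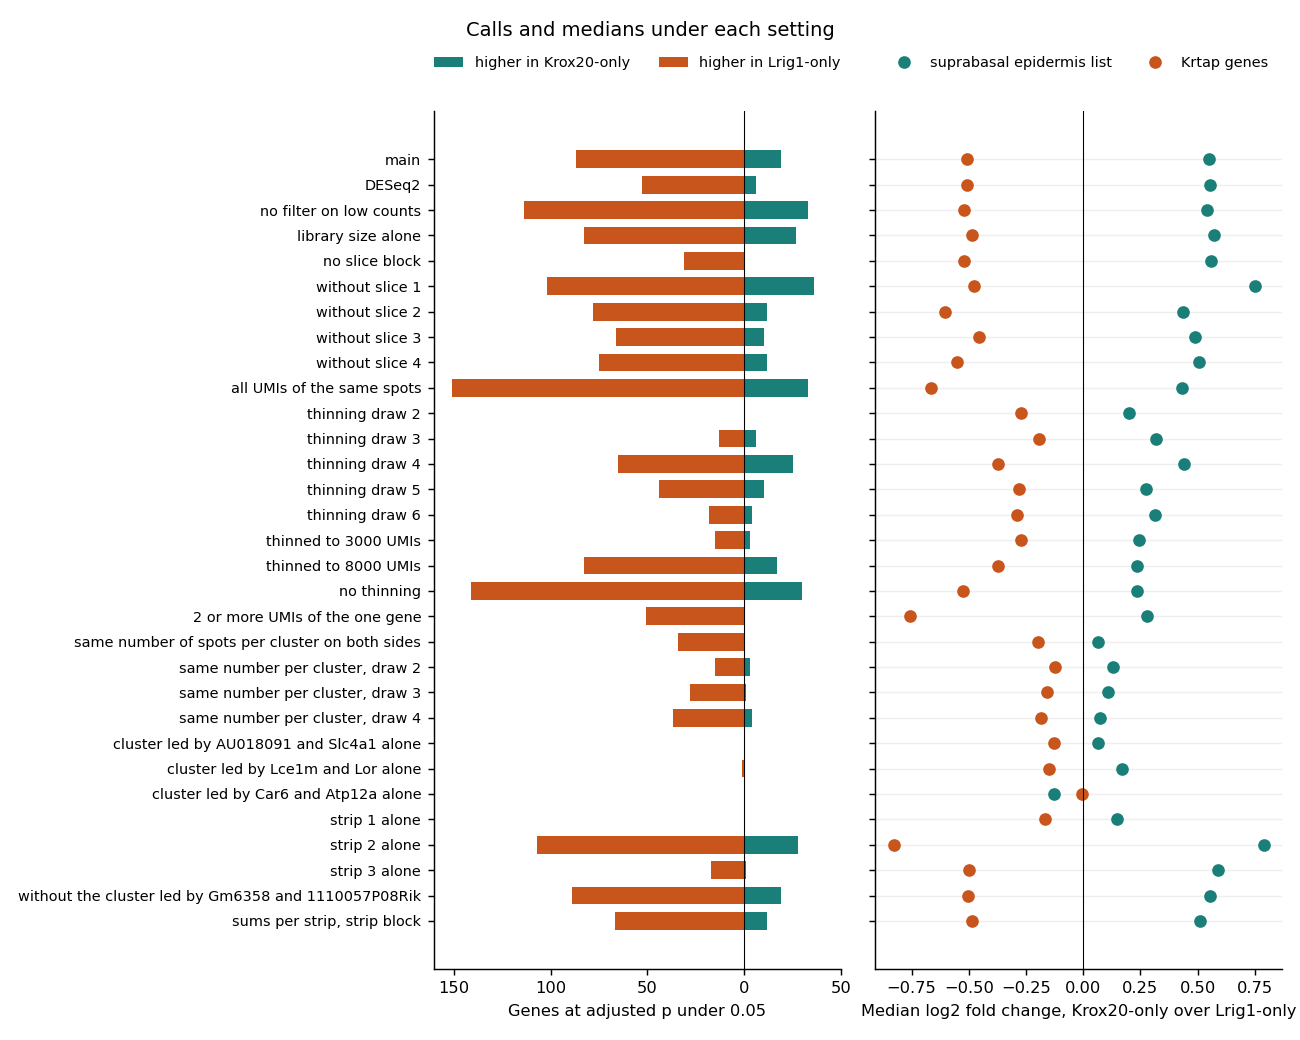
Left, number of genes at adjusted p under 0.05 higher in Krox20-only (right of 0) or Lrig1-only spots (left of 0) under each setting; right, median log2 fold change of 9 suprabasal genes and of the Krtap genes. Calls range from 0 to 184 in all; the Krtap median is below 0 in every setting drawn, and the suprabasal median is above 0 in all but the Car6 and Atp12a cluster alone.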

How the data were processed

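Fresh-frozen dorsal skin of 3 mice was sectioned onto 4 slices and profiled by Visium spatial transcriptomics. The authors made the deposited counts, whole UMI counts per gene and spot with mouse build mm10 per the labels, and the file headers name Space Ranger 2.0.1. Spots under 250 genes were left out (9). UMIs were thinned to 5500 per spot with a fixed seed; Egr2 and Lrig1 chose the sides and were not tested. Sums per slice and side were fitted with edgeR 4.0.16 (filterByExpr, TMM, quasi-likelihood, slice as block, Benjamini-Hochberg over all genes). The slice pairs the sums by design, since 1 set of sections gives both; over genes, their departures from the group means correlated at 0.183, 0.123, 0.0977 and 0.138 over genes. Seurat 5.3.0 gave 12 clusters (2000 variable genes, 30 components, resolution 0.6), of which 1 is not reported here. Shares, steps and neighbours were compared by exact sign-flip tests over 4 slices. In simulated sums of 9285 genes for this comparison, 89.7% of genes changed by 1 and 49.0% of those changed by 0.5 (log2) were called, with 4.26% false calls. The simulation drew every gene with a single common dispersion, no slice effect and fixed sides. It leaves out the change of spots between draws, so 4.26% is not the error rate of the genes called here. Intervals cover counting error and slices only. Of 2485 barcodes 750 occur in all 4 slices, since slides reuse one barcode set. Doublets were not called, as spots are not cells. Gene positions came from GENCODE M21 (GRCm38). Named genes were all list genes and up to 12 per direction with the largest change among those past adjusted p 0.05, the same direction in 4 of 4 slices and 20 CPM or more; other genes named were chosen after their values were seen. The members, lists and tests were chosen with earlier results of these data known. Alternatives were DESeq2 1.42.0, no filter, library size alone, no slice block, leaving out slices, other draws and depths, 2 or more UMIs, matched or single clusters, and, added after seeing the data, strips and 18 clusters.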

Additional observations from a re-analysis of the deposited data

Results flagged for a closer look

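In 130 groups of 4 slices, 5 held a slice far from the other 3, where chance flags about 1 in 20 groups. Crisp1 stood at 11.1 CPM in the Krox20-only spots of slice 3 against 22.0 to 24.1 in the others. Gm11596 stood at 358 CPM in the Lrig1-only spots of slice 3 against 174 to 196, and Krtap9-1 at 655 CPM in the Krox20-only spots of slice 1 against 548 to 566. In slice 1 the cluster led by Capn12 and Krt87 held 6.08% of Lrig1-only spots against 8.12 to 8.36% in the other slices. The cell cycle genes together stood at 459.8 CPM in the Krox20-only spots of slice 1 against 439 to 442.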

How the results depend on the processing

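The counts of genes higher in Krox20-only and in Lrig1-only spots, 19 and 87, were 6 and 53 with DESeq2, 33 and 114 without the filter on low counts, 27 and 83 with library size alone, and 0 and 31 with no replicate block, that is, without the slice as a block. All UMIs of the same spots gave 33 and 151 and spots without thinning 30 and 141. Thinning draws 2 to 6 gave 0 and 0, 6 and 13, 25 and 65, 10 and 44, and 4 and 18; in draw 2, 568 genes had an unadjusted p under 0.05. Thinning to 3000 UMIs gave 3 and 15, and to 8000 UMIs 17 and 83. Requiring 2 or more UMIs gave 0 and 51. Matched clusters gave 0 and 34, and in the added draws 3 and 15, 1 and 28, and 4 and 37. The clusters led by AU018091, Lce1m and Car6 alone gave 0 and 0, 0 and 1, and 0 and 0. Strips 1 to 3 alone gave 0 and 0, 28 and 107, and 1 and 17, sums per strip gave 12 and 67, and leaving out the Gm6358 cluster, almost absent from slice 1, gave 19 and 89. Leaving out 1 slice in turn gave 10 to 36 and 66 to 102. Why these counts differ was not tested, beyond fewer spots or genes where a setting leaves them out.

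Some genes turned direction under a setting, most of them without passing the test there (log2 fold changes). In draw 2 Orm1 was -0.010 and Serpina3j -0.13, in draw 4 Dct was -0.26, and in draw 5 Serpina3j was -0.21 and Krt71 0.0011. At 3000 UMIs Lce1m was -0.24, Lyg2 0.020 and Gm11596 0.061. Serpina3j was -0.18 at 8000 UMIs and -0.16 without thinning, and Dct -0.092 with 2 or more UMIs. With matched clusters Lce1m was -0.082, -0.0087 and -0.062, Krt79 -0.035, -0.037, -0.064 and -0.033, Tchh 0.019, 0.029 and 0.041, Krt71 0.011 and 0.033, Cnfn 0.053, Krt10 -0.00078, Wfdc21 -0.021, Sbsn -0.018 and Krt27 0.027. Cst6, which did not pass at 0.054, passed in the other direction in all 4 matched draws, at -0.14, -0.17, -0.13 and -0.15. In the AU018091 cluster alone Calm4 was -0.11, Wfdc21 -0.66, Krt79 -0.10, Krt86 0.016, Dct -0.038 and Acta1 0.094. In the Lce1m cluster alone Gm11568 was 0.020, Krt71 0.056, Tchh 0.015, Acta1 0.18, Myh4 0.27 and Cnfn 0.37. In the Car6 cluster alone Krt77 was -0.065, Krtdap -0.18, Krt10 -0.18, Fcgbp -0.43, Gm11596 0.72, Krtap4-9 0.13, Sbsn -0.13, Lor -0.13, Krt79 -0.29, Tchh 0.027 and Krt34 0.022. In strip 1 Fcgbp was -0.13, Krt79 -0.038 and Tchh 0.0033, and in strip 3 Dct was -0.084.

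Cluster shares moved by more than 1 SD in these cases (percentage points). The Car6 cluster was 5.21 at 3000 UMIs, and the Capn12 cluster 4.65 at 8000 UMIs and 4.04 without thinning. The Mt2 cluster was 3.53 and the Serpina3b cluster -1.11 in draw 2, and the latter -1.34 in draw 5. The Gm6358 cluster was -0.050, 0.48 and 0.019 in draws 3, 5 and 6 and -1.75 at 3000 UMIs. The Mlana cluster was 0.50, 0.26, 0.17, 0.34 and 0.46 in draws 2 to 6 and 0.57 without thinning. At 8000 UMIs the neighbour ratios were -0.057 for Egr2 and -0.17 for Lrig1. No resolution tried gave 16 clusters, so that alternative was not run, and 18 clusters moved no share reported by more than 1 SD. With about 1 UMI behind each label, depth limits every comparison here.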

Other observations

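Spots with both genes differed in makeup from either side, as a description with no test. Upper follicle genes together stood at 15377 ± 1950 CPM (SD, n = 4) in spots with both genes, 8158 ± 677 in Krox20-only, 7690 ± 1170 in Lrig1-only and 3642 ± 519 in spots with neither. Basal epidermal genes followed the same order for both and neither, at 9896 ± 951 and 4365 ± 259 CPM, with 7373 ± 782 and 7591 ± 338 on the sides. Skeletal muscle genes ran the opposite way, at 2169 ± 738 CPM with both genes and 8396 ± 902 with neither. Of the 383 spots with both genes 154 lay in the cluster led by Car6 and Atp12a.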
